A study of Mus musculus with 27 samples.

Results

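A set of immediate early genes from the EGR, NR4A and IER families was followed in mouse macrophages after lipopolysaccharide (LPS) and after interleukin-4 (IL-4). They were Egr1, Egr2 and Egr3, the EGR co-repressor gene Nab2, the orphan nuclear receptor genes Nr4a1, Nr4a2 and Nr4a3, and Ier2, Ier3 and Ier5. The genes were chosen by their symbols, with earlier results of these data known. They are 10 of the 45070 genes in the deposited table. All 10 passed the filter that left 13901 genes for testing (a value of at least 10 in at least 3 samples). Egr3 passed through 4 samples alone, all of them treated with LPS for 0.5 or 1 h, and Nr4a3 through the 12 LPS samples alone. Ier2 and Ier5, with 1 untreated sample each at 10 or more, would also have failed without the LPS samples. These 4 genes were therefore tested because they were high with LPS. Their comparisons of LPS with untreated samples and of LPS with IL-4 samples both carry that selection.

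The study asked how kinase inhibitors in clinical use change the responses of macrophages to LPS, the bacterial product that TLR4 recognises, and to IL-4, a cytokine whose receptor activates the transcription factor STAT6. The samples described here received no inhibitor. They were bone marrow-derived macrophages (BMDMs), primary cells grown from the bone marrow of wild type mice. All of them, the untreated ones included, first spent 1 h in DMSO, the solvent of the inhibitors, and were then left untreated or given 10 ng/ml LPS or 10 ng/ml IL-4 for 0.5, 1, 2 or 4 h. Each of the 9 groups had 3 replicates, which gave 27 samples. There was 1 untreated group, with no time label, and no untreated samples were matched to each time. In comparisons with untreated cells, an effect of a stimulus and one of time in culture therefore cannot be told apart. The labels do not say whether replicates came from separate mice or cultures, so p-values measure the spread between samples, which may be technical.

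Immediate early genes are transcribed within minutes of a signal without new protein synthesis, through factors already present in the cell, among them SRF with its ternary complex partners, CREB and NF-kB. Their own products are often transcription factors: EGR proteins bind GC-rich sites through zinc fingers and are held in check by NAB2, and NR4A receptors bind DNA without a known natural hormone. In macrophages, the NR4A genes are known as targets of TLR signalling, and Egr2 is known as a gene that IL-4 induces through STAT6.

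The RNA was taken from the chromatin fraction, which is rich in transcripts still being made. Values are the authors' normalised read counts, called read counts below, scaled between libraries and rounded to whole numbers. Sums over all genes were 2469768 to 2790981 in untreated and IL-4 samples and 3571492 to 4058199 in LPS samples. These are scaled sums and not sequencing depths, and depth is not given by such values. The 8 macrophage markers summed to 9601 to 17928 read counts per sample. Of 19 markers of 7 other cell types, 8 never exceeded 3 read counts. Fibroblast markers summed to 37 to 88 read counts in untreated samples, 31 to 206 with LPS and 28 to 207 with IL-4. In the same order, dendritic cell markers summed to 2 to 6, 5 to 96 and 10 to 22. Markers of neutrophils and their precursors summed to 1 to 2, 1 to 28 and 0 to 9. Cd3e, Ly6g and Xcr1 were at 0 throughout. The highest values were 128 for Col1a2, 95 for Col1a1, 90 for Zbtb46, 17 for Flt3, 16 for S100a8 and 14 for S100a9. The part of other cells in the results was not tested. In bulk samples, fewer cells of a type and less RNA per cell cannot be told apart.

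Promoter windows from RefSeq (GRCm38.p6, 250 bases before to 50 bases after an annotated start) were on hand for 7 of the 10 genes, and not for Egr1, Egr3 and Ier2. Windows are shown for Egr2 and Ier3, whose RNA stayed high under IL-4, and for Nr4a1 and Nr4a3, whose RNA rose under LPS. The Egr2 window is chr10:67537619-67537918 (plus strand), the Ier3 window chr17:35821463-35821762 (plus strand), the Nr4a1 window chr15:101266596-101266895 (plus strand) and the Nr4a3 window chr4:48045055-48045354 (plus strand). Capitals mark every match to the motifs searched, on either strand.
Egr2: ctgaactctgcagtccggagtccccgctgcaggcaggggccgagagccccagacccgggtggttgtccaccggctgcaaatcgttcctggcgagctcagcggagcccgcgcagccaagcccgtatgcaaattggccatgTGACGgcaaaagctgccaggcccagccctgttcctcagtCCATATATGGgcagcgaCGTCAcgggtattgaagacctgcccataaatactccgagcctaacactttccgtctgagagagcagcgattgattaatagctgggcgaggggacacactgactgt
Ier3: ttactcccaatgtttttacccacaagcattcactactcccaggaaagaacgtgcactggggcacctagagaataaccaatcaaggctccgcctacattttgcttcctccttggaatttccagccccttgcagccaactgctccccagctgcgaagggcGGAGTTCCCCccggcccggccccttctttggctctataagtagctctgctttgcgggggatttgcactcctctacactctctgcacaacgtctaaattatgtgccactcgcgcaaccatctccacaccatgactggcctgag
Nr4a1: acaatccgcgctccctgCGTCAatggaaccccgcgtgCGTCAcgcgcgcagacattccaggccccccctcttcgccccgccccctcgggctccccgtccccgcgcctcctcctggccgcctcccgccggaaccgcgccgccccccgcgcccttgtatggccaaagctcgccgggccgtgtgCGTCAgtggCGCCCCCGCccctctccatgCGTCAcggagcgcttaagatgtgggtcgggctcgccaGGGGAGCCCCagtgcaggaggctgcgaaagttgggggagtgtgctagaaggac
Nr4a3: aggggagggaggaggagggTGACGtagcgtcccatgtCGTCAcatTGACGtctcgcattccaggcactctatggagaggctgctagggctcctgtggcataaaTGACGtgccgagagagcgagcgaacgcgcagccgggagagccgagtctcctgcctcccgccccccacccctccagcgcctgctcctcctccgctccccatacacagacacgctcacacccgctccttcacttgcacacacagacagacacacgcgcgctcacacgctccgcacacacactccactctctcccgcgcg

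The Egr2 window held a CArG box, the site of SRF, with its first base at position -72 from the start site. CRE half-sites (TGACG, or CGTCA on the other strand), the core of CREB sites, lay on either side of it at -111 and -55. Egr2 has 5 annotated starts: the next 2 windows along overlap the one shown and hold the same matches, another holds a second CArG box, and the window at the gene's 5′ end holds an NF-kB match. The Ier3 window held an NF-kB match at -92. The Nr4a1 window held 4 CRE half-sites, at -233, -213, -69 and -40, with an EGR site at -60 and an NF-kB match at -3, and the Nr4a3 window held 4 CRE half-sites between -231 and -147. The Nr4a2 window also held 4 half-sites, beside an EGR site. Its match to the TATA box (TATAAA) lay at -164 and on the other strand, as TTTATA. The Ier5 and Nab2 windows held no match. Of all 32851 windows in the table, 1.63% held a CArG box, 20.8% a CRE half-site, 5.55% an EGR site, 8.46% an NF-kB match and 13.6% a TATA box. The full CRE, the NR4A site NBRE and the STAT6 site had no match in any member window and were found in 1.79%, 1.51% and 6.95% of all windows. A full CRE contains the half-site. A match is only a match of letters.

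LPS moved all 10 genes over its course and IL-4 moved 5. Over the 4 times of a course, 10 of 10 genes passed the F test for LPS, where 87.6% of all tested genes passed. Nr4a2 was the weakest of them (adjusted p = 0.00764) and was lost without replicate 1 (0.129) and with equal totals (0.0565), a scaling of all libraries to the same sum. For IL-4, 5 of 10 passed, where 40.3% of all tested genes passed: Egr2, Egr3, Ier3, Nab2 and Nr4a1. The share of members that changed at all was therefore close to the background for both stimuli, and the size and direction of the changes are what follows.

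At 0.5 h of LPS, 9 of 10 members were higher than in untreated cells and none lower. Among all tested genes 53.9% passed in either direction and 19.6% were higher. The member left out was Nr4a2. The median log2 change of the 10 members was 4.14, against -0.24 over all tested genes. At 1 h, 9 members were again higher (63.8% of all genes passed, 24.8% higher), with a median of 2.03. At 2 h, 4 members were higher (65.9% passed, 26.9% higher), and at 4 h 4 were higher and 1 lower (63.5% passed, 25.9% higher). Without replicate 2, 2 members were called at 2 h and 3 at 4 h, and without replicate 3 also 3 at 4 h. Nr4a2 passed at 1 h too with median-of-ratios scaling (adjusted p = 0.0161). The members' count stood above the share of all genes that rose at 0.5 and 1 h, and nearer to it at 2 and 4 h, with 4 of the 10 members tested only through their LPS samples.

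Under IL-4 the numbers were smaller. Egr2 and Ier3 were the 2 members higher at 0.5 h, where 16.3% of all tested genes passed and 8.15% were higher. Both were higher again at 1 h, with Nr4a1 lower (21.0% of all genes passed, 11.1% higher). At 2 and at 4 h, Egr2, Ier3 and Nab2 were higher and Nr4a1 lower, where 27.6% and 25.9% of all genes passed and 14.3% and 13.4% were higher. The median log2 change of the members lay between -0.16 and 0.32 at the 4 times, and that of all tested genes between -0.02 and 0.02. Without replicate 1, 6 members were called at 1 h, and without replicate 3, 3 were called over the course and 2 at 4 h.

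**Figure D1:**
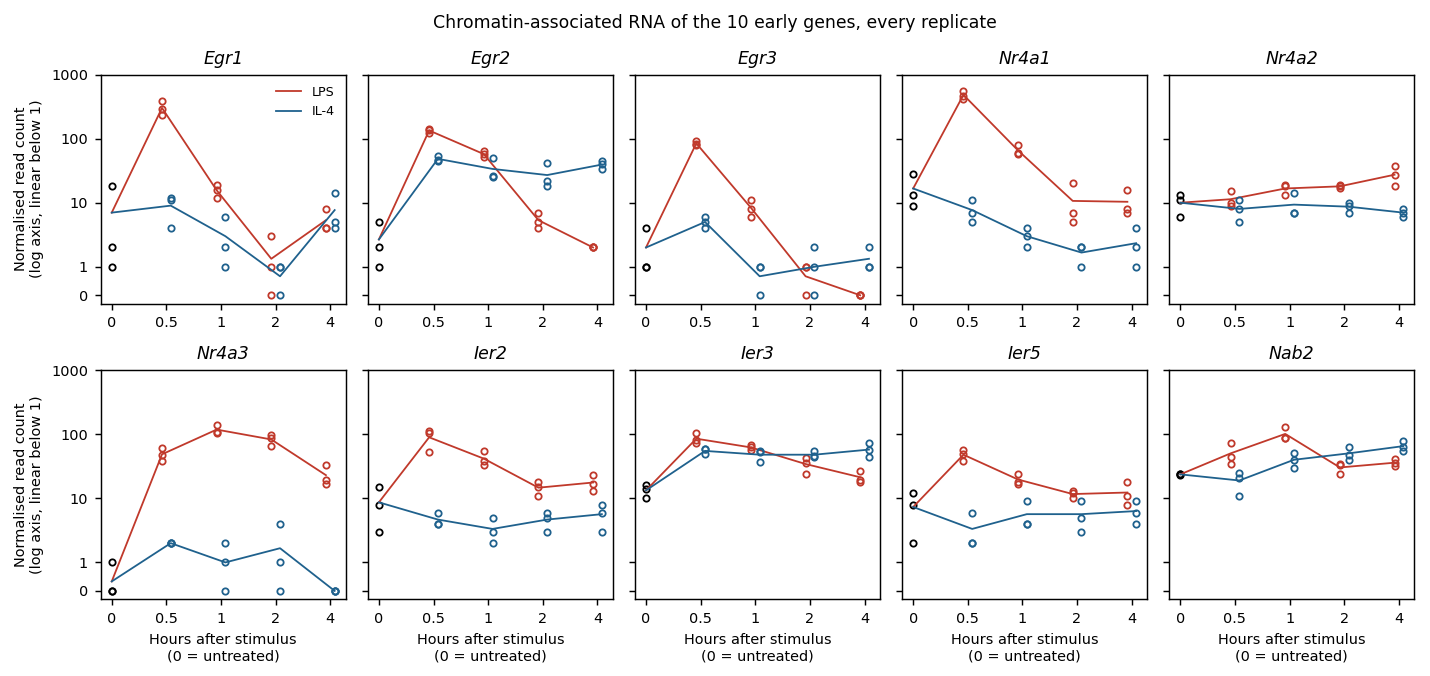
Read counts (vertical axis, logarithmic above 1 and linear below) of the 10 genes at each time (horizontal axis, hours, spaced evenly and not to scale); circles are single replicates (red LPS, blue IL-4, black untreated), lines join group means, and time 0 is the untreated group shared by both courses. Egr2 and Ier3 rise with both stimuli and stay up with IL-4, whereas Egr1, Egr3 and the NR4A genes lie far higher with LPS than with IL-4 at 0.5 or 1 h, except Nr4a2, which differs little at these times.

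The 3 EGR genes encode closely related activators, and under LPS all 3 peaked at 0.5 h. Egr1 lies on chromosome 18 (34861207 to 34864956, plus strand). Its read counts were 2, 1 and 18 in the untreated replicates and 291, 233 and 380 at 0.5 h of LPS. They dropped to 19, 16 and 12 by 1 h and to 3, 0 and 1 by 2 h, and stood at 4, 4 and 8 after 4 h. The samples at 0.5 h stood apart from all others, and those at 2 h lay among the low values. Replicate 3 was high among the untreated samples, so that the untreated range reached that of 1 h.

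The log2 change of Egr1 from untreated was 5.93 ± 0.67 (SE, limma adjusted p = 2.72e-06) at 0.5 h of LPS. It was 1.76 ± 0.67 at 1 h (adjusted p = 0.0307), a call that was lost without replicate 1 (adjusted p = 0.157) or replicate 2 (0.264) and with equal totals (0.0932). At 2 h the change of -1.28 did not pass (adjusted p = 0.103), but did so with replicate number as a block (0.0457), with equal totals (0.0341) and without replicate 1 (0.0245). At 4 h it was 0.33 (adjusted p = 0.688). When the untreated replicate 3 was left out, an alternative chosen after seeing the data, the change at 4 h became 1.31 and passed (adjusted p = 0.0368).

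Egr2 (chromosome 10, 67535499 to 67542188, plus strand) had read counts of 2, 1 and 5 in untreated cells and of 124, 138 and 140 at 0.5 h of LPS. They fell to 51, 57 and 64 at 1 h and to 5, 7 and 4 at 2 h, and were 2, 2 and 2 at 4 h. The groups at 0.5 and 1 h did not overlap each other or the untreated samples, while those at 2 and 4 h overlapped the latter. Against untreated cells Egr2 gained 5.35 ± 0.34 on the log2 scale at 0.5 h (adjusted p = 4.87e-09), 4.14 ± 0.34 at 1 h (5.44e-08) and 0.91 ± 0.34 by 2 h (0.0277). By 4 h the change was -0.14 ± 0.34 (0.741). The call at 2 h was lost without replicate 1 (adjusted p = 0.101) or replicate 2 (0.468) and when libraries were scaled to equal totals (0.291). By 4 h the mean stood at 1.49% of its peak.

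Egr3 (chromosome 14, 70077317 to 70082613, plus strand) had untreated read counts of 1, 1 and 4. With LPS it had 82, 79 and 92 at 0.5 h and 6, 8 and 11 at 1 h. It then fell to 1, 0 and 1 by 2 h and to 0 in all 3 replicates by 4 h. The first 2 groups lay above every untreated sample and the last lay below. The log2 change of Egr3 was 4.97 ± 0.41 at 0.5 h (adjusted p = 8.58e-08) and 1.75 ± 0.41 at 1 h (0.00151). At 4 h Egr3 was called lower (adjusted p = 0.00582), with both groups near or at 0. That call was lost without replicate 3 (adjusted p = 0.112) and with a pseudocount of 8 (0.097).

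Under IL-4 the EGR genes parted. Egr2 had 54, 47 and 44 read counts at 0.5 h and 50, 25 and 26 at 1 h. It still had 41, 18 and 22 after 2 h and 45, 33 and 40 after 4 h. All 12 IL-4 samples lay above the highest untreated sample, and replicate 1 was the highest of each group. The means were 48.3 ± 5.13, 33.7 ± 14.2, 27 ± 12.3 and 39.3 ± 6.03 (SD, n = 3), against 2.67 ± 2.08 in untreated cells.

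The log2 change of Egr2 under IL-4 was 3.90 ± 0.39 at 0.5 h (adjusted p = 1.08e-05), 3.32 ± 0.39 at 1 h (2.94e-05), 3.0 ± 0.39 at 2 h (6.27e-05) and 3.60 ± 0.39 at 4 h (1.41e-05). No pair of IL-4 times that was compared differed for Egr2. From 0.5 to 4 h the log2 change was -0.30 ± 0.39 (adjusted p = 0.628), and the mean at 4 h was 81.4% of that at 0.5 h. The IL-4 peak was 36.1% of the LPS peak of the same gene.

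Egr1 showed no such course. Its IL-4 read counts were 12, 4 and 11 at 0.5 h and 6, 1 and 2 at 1 h. They were 1, 1 and 0 after 2 h and 14, 5 and 4 after 4 h. All 4 groups overlapped the untreated samples. The log2 changes were 0.92, -0.48, -1.61 and 0.66 at the 4 times, with adjusted p values of 0.494, 0.733, 0.142 and 0.591. Over the whole course Egr1 missed the threshold (adjusted p = 0.0819), but passed with replicate number as a block (0.0309) and without untreated replicate 3 (0.0138). The step from 2 to 4 h, a log2 change of 2.27 (adjusted p = 0.116), also passed with the block (0.039).

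Egr3 had 5, 6 and 4 read counts at 0.5 h of IL-4. Thereafter it had 1, 0 and 1 at 1 h, 2, 1 and 0 after 2 h, and 1, 1 and 2 after 4 h. The first group touched the highest untreated value of 4 and the others lay within 0 to 2. The log2 change at 0.5 h was 1.13 ± 0.45 and did not pass (adjusted p = 0.118), but passed without replicate 3 in any group (0.0478) and without untreated replicate 3 alone (0.036). The course as a whole passed (adjusted p = 0.025), though not without replicate 2 (0.309). Egr2 was thus the EGR gene with a large IL-4 change at every time, and the changes of Egr1 and Egr3 stayed close to the spread between replicates.

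Egr2 shares 682 bases at its 5′ end with Gm32255, a non-coding RNA gene on the other strand (chromosome 10, 67496359 to 67536180). The library method does not mark strand, so reads from the shared stretch cannot be assigned to one of the pair. Gm32255 had 0 read counts in all 3 untreated samples. With IL-4 it had 7, 3 and 3 at 0.5 h, 8, 9 and 4 by 1 h, 6, 5 and 5 by 2 h, and 16, 4 and 15 by 4 h. With LPS it had 2, 0 and 1, then 5, 7 and 12, then 1, 1 and 0, and finally 0 in all 3 replicates. All 12 IL-4 samples lay above the untreated ones, and the level at 4 h was at least 3.89-fold higher (against a floor of 3 read counts per library, adjusted p = 5.37e-05). Under LPS it was highest at 1 h, when Egr2 was already past its peak.

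**Figure D2:**
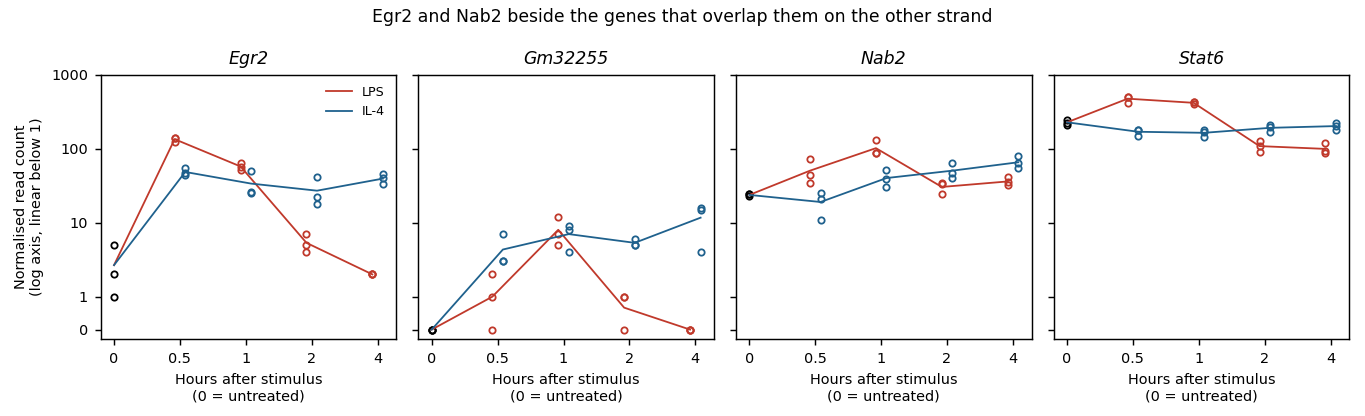
Read counts (vertical axis, logarithmic above 1 and linear below) of Egr2 and Nab2 and of the genes that overlap them on the other strand, against hours after the stimulus (horizontal axis, not to scale); circles are replicates (red LPS, blue IL-4, black untreated) and lines join means. Gm32255 is at 0 in untreated cells and at 3 to 16 in the IL-4 samples, and Stat6 lies between 142 and 221 in the IL-4 samples while Nab2 climbs.

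NAB2 binds EGR proteins and represses their activity. Its gene (chromosome 10, 127660918 to 127666703, minus strand) peaked at 1 h of LPS, after the 0.5 h peak of the EGR genes. Untreated read counts were 24, 24 and 23. With LPS they were 73, 44 and 34 at 0.5 h and climbed to 129, 88 and 87 by 1 h. They came back to 34, 33 and 24 by 2 h and were 41, 35 and 32 after 4 h. The first 2 groups and the last lay above all untreated samples. For Nab2 the log2 change was 0.99 ± 0.26 at 0.5 h (adjusted p = 0.00458) and 2.03 ± 0.26 at 1 h (6.26e-06). The call at 0.5 h was lost with equal totals (adjusted p = 0.102) and without replicate 2 (0.0587). At 4 h the change of 0.58 did not pass (adjusted p = 0.0625), passed with the replicate block (0.0165) and with median-of-ratios scaling (0.0202), and was -0.01 with equal totals.

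With IL-4, Nab2 had 11, 25 and 21 read counts at 0.5 h. It went up to 30, 51 and 39 by 1 h, 64, 40 and 47 by 2 h, and 54, 63 and 79 by 4 h. The first group overlapped the untreated samples and the other 3 lay above them. The log2 change went from -0.38 (adjusted p = 0.439) through 0.70 (0.0995) to 1.03 ± 0.28 at 2 h (0.0141) and 1.41 ± 0.28 at 4 h (0.00206). From 0.5 to 4 h it gained 1.79 ± 0.28 (adjusted p = 0.000375). Nab2 was the one member with a clear gain from 0.5 to 4 h of IL-4. Without replicate 3 the calls at 2 and 4 h and of the course were lost (adjusted p = 0.158, 0.105 and 0.0782), and so was that at 2 h without replicate 2 (0.0599). The call at 1 h was gained without replicate 1 (0.00806).

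The Nab2 and Stat6 genes share 70 bases at their 3′ ends, on opposite strands. Here too, reads from the shared stretch cannot be assigned to one of the pair. Stat6 encodes the transcription factor of the IL-4 receptor, and it had 209, 245 and 225 read counts in untreated cells. Under IL-4 it did not follow Nab2. It was lower at 0.5 h (150, 179 and 177 read counts, a log2 change of -0.42, adjusted p = 0.0245) and at 1 h (178, 170 and 142, -0.47, adjusted p = 0.0105). At 2 and 4 h it did not pass. Under LPS it was first higher, by log2 changes of 1.06 at 0.5 h and 0.87 at 1 h. It was then lower, by -1.07 and -1.20 at the later times. Each of these changes had an adjusted p of at most 0.000108. Nab2 was also higher at 0.5 and 1 h of LPS and, like Stat6, fell from 1 to 2 h.

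The NR4A genes, orphan nuclear receptors, each had a course of their own under LPS. Nr4a1 (chromosome 15, 101266846 to 101274795, plus strand) had the highest read counts of all members. It had 13, 9 and 28 in untreated cells and 463, 422 and 560 at 0.5 h of LPS. It dropped to 79, 60 and 57 by 1 h and to 20, 7 and 5 by 2 h, with 16, 7 and 8 after 4 h. The first 2 groups lay above the untreated samples and the last 2 overlapped them. The log2 change was 4.91 ± 0.45 at 0.5 h (adjusted p = 2.9e-07) and 2.04 ± 0.45 at 1 h (0.000946). At 2 h it was -0.67 (adjusted p = 0.197) and turned to 0.13 without replicate 3. The falls at 2 and 4 h passed without replicate 1 (adjusted p = 0.00887 and 0.0339) and with equal totals (0.0162 and 0.0287).

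IL-4 lowered Nr4a1. Its read counts were 11, 5 and 7 at 0.5 h and 4, 3 and 2 at 1 h. They were 2, 2 and 1 after 2 h and 2, 4 and 1 after 4 h. From 1 h on, all 9 samples lay below the lowest untreated sample. The log2 change was -0.94 at 0.5 h (adjusted p = 0.176), -2.03 ± 0.43 at 1 h (0.00376), -2.61 ± 0.43 at 2 h (0.00045) and -2.36 ± 0.43 at 4 h (0.00109). The highest untreated value came from replicate 3. Without replicate 3, the fall at 2 h still passed and those at 1 and 4 h and the course did not (adjusted p = 0.0964, 0.054 and 0.0587).

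Nr4a3 (chromosome 4, 48045305 to 48086446, plus strand) was close to absent before LPS, with 1, 0 and 0 read counts. It had 60, 48 and 38 at 0.5 h and 142, 107 and 106 at 1 h. It still had 98, 65 and 86 after 2 h and 33, 19 and 17 after 4 h. All 12 LPS samples lay far above the untreated ones, and the peak came at 1 h. The log2 change was 5.28 ± 0.32, 6.55 ± 0.32, 6.04 ± 0.32 and 4.19 ± 0.32 at the 4 times, each with an adjusted p of at most 1.53e-08. With untreated values at or near 0, the size of these changes depends on the pseudocount, and Nr4a3 was tested only because the LPS samples passed the filter. The rise from 0.5 to 1 h was 1.28 ± 0.32 (adjusted p = 0.00388; 0.0609 without replicate 3).

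With IL-4, Nr4a3 stayed between 0 and 4 read counts in all 12 samples. No time point passed against untreated, and the largest log2 change was 1.25 at 0.5 h (adjusted p = 0.128). It passed at 0.5 and 1 h without replicate 1 (adjusted p = 0.0129 and 0.0264), at levels of at most 2 read counts.

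Nr4a2 (chromosome 2, 57107226 to 57124003, minus strand) was the member with no called change at 0.5 h of LPS. It had 6, 13 and 11 read counts in untreated cells and 9, 15 and 10 at 0.5 h, then 19, 13 and 18, then 18, 19 and 17, and 37, 27 and 18 at 4 h. The groups at 2 and 4 h lay above all untreated samples and those before overlapped them. The log2 change was 0.19 ± 0.33 at 0.5 h (95% interval -0.50 to 0.89), 0.85 ± 0.33 at 2 h (adjusted p = 0.0325) and 1.37 ± 0.33 at 4 h (0.00184). The call at 2 h was lost without any one of the 3 replicates (adjusted p = 0.0718 to 0.159) and with equal totals (0.515). With IL-4 its read counts were 5 to 14, no time point passed, and the course had an adjusted p of 0.834. Nr4a2 shares 670 bases with LOC105244150 on the same strand, which never exceeded 4 read counts.

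The IER genes are short immediate early genes: Ier2 and Ier5 encode related nuclear proteins, and Ier3 encodes a small protein of stress and survival signalling. Ier3 (chromosome 17, 35821713 to 35822911, plus strand) was the member closest to Egr2. Untreated read counts were 10, 14 and 16. With LPS they were 103, 72 and 81 at 0.5 h and 67, 56 and 64 by 1 h, and declined to 36, 24 and 43 by 2 h and 27, 18 and 19 by 4 h. With IL-4 they were 58, 49 and 58, then 53, 54 and 37, then 54, 44 and 46, and 44, 56 and 73 at 4 h. Each of the 24 stimulated samples lay above the highest untreated one.

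Under LPS the log2 change of Ier3 went from 2.60 ± 0.25 (adjusted p = 6.58e-07) through 2.16 (2.76e-06) and 1.29 (0.000382) to 0.64 ± 0.25 (0.0385). The last of these was lost without any one replicate (adjusted p = 0.0619 to 0.358) and was 0.07 with equal totals. Under IL-4 it was 1.99 ± 0.22, 1.78 ± 0.22, 1.79 ± 0.22 and 2.03 ± 0.22, each with an adjusted p of at most 3.98e-05. From 0.5 to 4 h of IL-4 the change was 0.04 ± 0.22 (adjusted p = 0.915). Over the 27 samples the log2 read counts of Ier3 and Egr2 had a Pearson r of 0.90, the highest of the 45 member pairs. These samples share groups and libraries, so this only describes the 2 courses.

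Ier2 (chromosome 8, 84661331 to 84662852, minus strand) had 3, 8 and 15 read counts in untreated cells. With LPS it had 106, 52 and 111 at 0.5 h and 54, 38 and 33 at 1 h. Lower values followed, 18, 11 and 15 after 2 h and 13, 23 and 17 after 4 h. The first 2 groups stood above the untreated samples, and the later groups overlapped them. For Ier2 the log2 change was 3.37 ± 0.43 at 0.5 h (adjusted p = 1.12e-05), 2.33 ± 0.43 at 1 h (0.000254) and 1.13 ± 0.43 at 4 h (0.033). The last was lost without replicate 1 (adjusted p = 0.0776) or replicate 2 (0.176) and with equal totals (0.234). The change at 2 h, 0.89 (adjusted p = 0.0842), passed without untreated replicate 3 (1.36, adjusted p = 0.0116) and with median-of-ratios scaling (0.0327). With IL-4, Ier2 had 2 to 8 read counts and no time point passed (log2 changes of -0.40 to -1.0), except at 1 h without replicate 1 (adjusted p = 0.038).

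Ier5 (chromosome 1, 155096367 to 155099636, minus strand) had 12, 2 and 8 read counts in untreated cells and 57, 38 and 49 at 0.5 h of LPS. It had 18, 24 and 17 by 1 h, 12, 13 and 10 by 2 h, and 18, 11 and 8 by 4 h. The first 2 groups lay above the untreated samples and the later ones overlapped them. The log2 change was 2.78 ± 0.44 at 0.5 h (adjusted p = 7.62e-05) and 1.53 ± 0.44 at 1 h (0.00637; 0.149 without replicate 2, 0.0518 with equal totals), and the later ones did not pass. Without replicate 1 that at 2 h passed (adjusted p = 0.0247). With IL-4 it had 2 to 9 read counts, and the course had an adjusted p of 0.665.

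**Figure D3:**
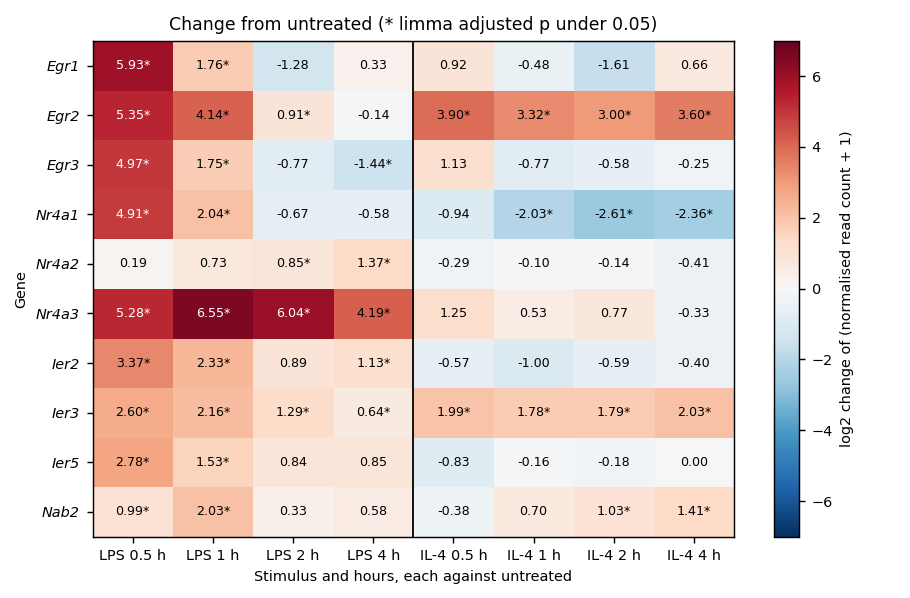
The log2 change of read count + 1 from untreated for each gene (rows) at each stimulus and time (columns), coloured from blue (lower) to red (higher); a star marks a limma adjusted p under 0.05. In the IL-4 columns, stars stand in the rows of Egr2 and Ier3 at all 4 times, of Nab2 at 2 and 4 h and of Nr4a1 from 1 h on.

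The steps within each course showed how quickly the first rise ended. From 0.5 to 1 h of LPS, Egr1, Egr2, Egr3, Nr4a1 and Ier5 fell, with log2 changes of -4.18, -1.21, -3.23, -2.87 and -1.24. Over the same step Nr4a3 and Nab2 rose, by 1.28 and 1.04. This made 7 of 10 members, where 49.7% of all tested genes passed, 6 without replicate 2 and 4 without replicate 3. Ier5 was lost without replicate 1 or 3 (adjusted p = 0.0628 and 0.194) and Nab2 without replicate 2 or 3 (0.0584 and 0.0509). The step of Ier2, -1.04 (adjusted p = 0.0585), passed with the replicate block (0.0378). From 1 to 2 h, Egr1, Egr2, Egr3, Nr4a1, Ier2, Ier3 and Nab2 fell, 7 of 10 where 43.3% passed, with log2 changes from -0.88 (Ier3) to -3.23 (Egr2). Without replicate 2, Ier2 and Ier3 were lost (adjusted p = 0.121 and 0.123), and Ier3 also without replicate 3 (0.0532) and with replicates 2 and 3 averaged (0.0611). From 2 to 4 h, Egr2 and Nr4a3 fell further (22.9% of all genes passed). The step of Egr2, from 4 to 7 read counts down to 2, was lost without any one replicate (adjusted p = 0.0857 to 0.239). Without replicate 2 or 3, 1 member passed this step. With the block, Egr1 rose (1.60, adjusted p = 0.033) and Ier3 fell (-0.65, 0.0433) over this step too, which made 4.

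From 0.5 to 4 h of LPS, 8 members fell and Nr4a2 rose, by 1.17 (adjusted p = 0.00542), so that 9 of 10 passed where 63.0% of all tested genes did. Nab2 was the exception, with -0.41 (adjusted p = 0.182). The falls ran from -1.08 for Nr4a3, lost without replicate 2 (0.0964) or replicate 3 (0.0653), to -6.41 for Egr3, the latter to read counts of 0.

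IL-4 gave few such steps. From 0.5 to 1 h, Egr3 fell (-1.91, adjusted p = 0.0216) and Nab2 rose (1.08, 0.0333), 2 of 10 where 7.82% of all tested genes passed, and neither passed without replicate 2 (0.404 and 0.26) or replicate 3 (0.0719 and 0.297). From 1 to 2 h, limma called 0 members, also at an unadjusted p under 0.05 (9.40% of all genes passed). From 2 to 4 h it called 0, with 1, Egr1, at an unadjusted p under 0.05 (5.48% of all genes passed). From 0.5 to 4 h, Nab2 rose and Egr3, Nr4a1 and Nr4a3 fell, 4 of 10 where 27.3% of all tested genes passed. The falls were between levels of at most 11 read counts, and 2 of 10 members passed in each fit without 1 replicate.

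Set directly against each other at the same time, in 1 fit of all 27 samples, the LPS and IL-4 groups differed for all 10 members at some time. This was also so for 88.1% of all tested genes. Again, 4 of the 10 members were tested only through their LPS samples. At 0.5 h, 9 members were higher with LPS (53.8% of all genes passed, 18% higher). The exception was Nr4a2, with a log2 difference, LPS minus IL-4, of 0.48 (95% interval -0.19 to 1.16). At 1 h, 9 were again higher (64.5% passed, 24.0% higher), and Ier3 was not, with 0.39 (-0.09 to 0.87). The call of Egr1 at 1 h was lost without replicate 2 (adjusted p = 0.0666).

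The sign then turned for some genes. At 2 h, the 3 NR4A genes and Ier2 were higher with LPS, and Egr2 and Nab2 were higher with IL-4 (68.6% of all genes passed, 26.4% higher with LPS). Ier2 was lost at 2 h with equal totals (adjusted p = 0.0535). At 4 h, the NR4A genes and Ier2 were again higher with LPS, and Egr2, Egr3, Ier3 and Nab2 were higher with IL-4 (68.0% passed, 26.1% higher with LPS). Without replicate 3, 5 members passed at 4 h, Ier2 no longer among them (adjusted p = 0.0556). Nr4a2 was lost at 1 and 2 h without replicate 3 (adjusted p = 0.272 and 0.0588) and with equal totals (0.297 and 0.26), but not at 4 h (1.78 ± 0.33, 4.2e-05 in the fit of all samples).

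The course of Egr2 ran from 1.46 ± 0.33 in favour of LPS at 0.5 h (adjusted p = 0.000641) through 0.82 ± 0.33 at 1 h (0.0334) to -2.09 ± 0.33 at 2 h (5.84e-06) and -3.74 ± 0.33 at 4 h (4.98e-10). The difference at 1 h was lost without replicate 2 (adjusted p = 0.186) or replicate 3 (0.243) and with equal totals (0.36). At 4 h the LPS samples had 2 read counts each and the IL-4 samples 33 to 45.

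Ier3 followed the same order with smaller differences, from 0.61 ± 0.23 at 0.5 h (adjusted p = 0.0294) to -1.39 ± 0.23 at 4 h (1.34e-05). The first was lost without any one replicate (adjusted p = 0.081 to 0.107). At 2 h its difference of -0.51 missed the threshold (adjusted p = 0.0579) and passed with the replicate block (0.0436). The difference at 1 h turned from 0.39 to -0.08 with equal totals and passed at 0.68 with median-of-ratios scaling (adjusted p = 0.0155). Nab2 went from 1.36 ± 0.28 at 0.5 h (adjusted p = 0.000286) to -0.70 ± 0.28 at 2 h (0.0329) and -0.83 ± 0.28 at 4 h (0.0128). Both late differences of Nab2 were lost with median-of-ratios scaling (adjusted p = 0.203 and 0.106) and without replicate 2 (0.0585 and 0.0841) or replicate 3 (0.215 and 0.198).

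The widest gaps were those of Nr4a1 at 0.5 h, 5.85 ± 0.44 (adjusted p = 1.01e-10), and Nr4a3 at 1 h, 6.02 ± 0.44 (3.61e-11). Egr1 and Egr3 differed by 5.01 ± 0.66 and 3.84 ± 0.42 at 0.5 h (adjusted p = 8.38e-07 and 4.88e-08), and Ier2 and Ier5 by 3.94 ± 0.42 and 3.60 ± 0.47 (3.89e-08 and 6.1e-07). Nr4a3, Egr3, Ier2 and Ier5 passed the filter only through LPS samples, so their gaps in favour of LPS were partly set by that selection. By 4 h Egr1 no longer differed detectably, at -0.33 (95% interval -1.70 to 1.03). At 4 h Egr3 was at 0 with LPS and at 1 to 2 with IL-4, and its call was lost without replicate 2 (adjusted p = 0.0591) or replicate 3 (0.086). The difference of Ier5 at 2 h, 1.02 (adjusted p = 0.0558), passed with the block (0.0387) and without replicate 2 (0.0379).

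**Figure D4:**
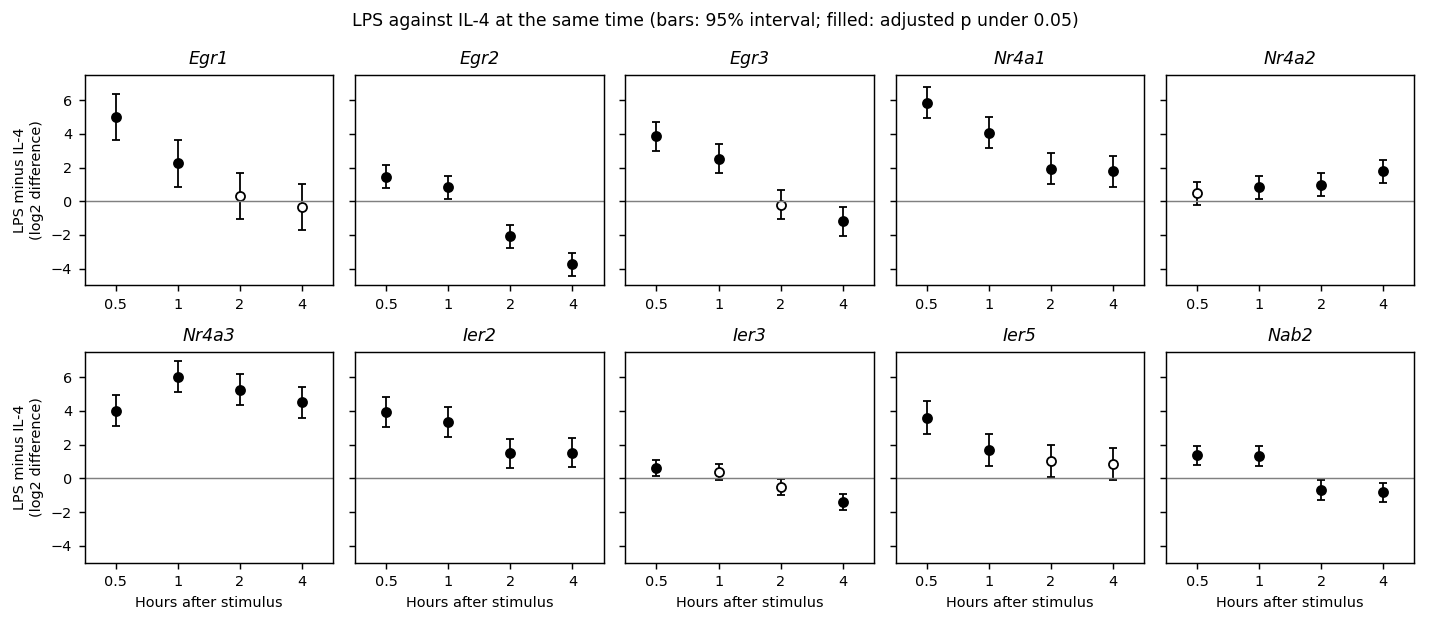
The log2 difference between LPS and IL-4 samples at the same time (vertical axis, LPS minus IL-4) against hours after the stimulus (horizontal axis, not to scale) for each gene; points are fitted differences, bars 95% intervals, and filled points have an adjusted p under 0.05. Egr2 crosses from 1.46 at 0.5 h to -3.74 at 4 h, and Ier3 and Nab2 cross in the same order, while the NR4A genes, Ier2 and Ier5 stay above 0.

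Compared per kb of exon, the levels at 0.5 h of LPS ran from 194.5 read counts per kb for Nr4a1 and 98.1 for Egr1 down to 7.26 for Nr4a3 and 3.39 for Nr4a2. This order depends on the length used. Per kb of the whole gene, introns included, Egr1 had 80.4, Ier3 71.2 and Nr4a1 60.6. The next values are again per kb of exon. At 4 h of IL-4, Ier3 had 52.9 read counts per kb, Nab2 25.4 and Egr2 11.5, and the other 7 members had at most 3.72. In the order of the 9 groups, the LPS 0.5 h group ranked highest for 7 members, LPS 1 h for Nr4a3 and Nab2, and LPS 4 h for Nr4a2. For Egr2 the order went on with LPS at 1 h and IL-4 at 0.5, 4, 1 and 2 h, in which each group overlapped the next, and then dropped without overlap to LPS at 2 h, untreated and LPS at 4 h.

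Genes outside the set were ranked by the likeness of their course, as the Pearson correlation of log2(value + 1) over the 27 samples. This is a description, since the samples share groups and libraries. The genes most like Egr2 were Sema6d (r = 0.899), Picalm (0.891) and the non-coding C030005K06Rik (0.872). Sema6d, which encodes a semaphorin, had mean read counts of 73 in untreated cells, 501 and 426 at 0.5 and 1 h of LPS, 34 at 4 h of LPS, and 283, 204, 156 and 197 over the IL-4 times. The closest genes to the others were Ttll3 for Egr1 (0.902), Ptp4a1 for Egr3 (0.931), Mtmr12 for Nr4a1 (0.957), Dnajc1 for Nr4a2 (0.864), Noct for Nr4a3 (0.975), Id2 for Ier2 (0.951), Rnf19b for Ier3 (0.847), Sde2 for Ier5 (0.903) and Sec63 for Nab2 (0.807).

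Other immediate early genes were taken as a list of 23, of which 20 were tested. At 0.5 h of LPS 18 of the 20 were higher and none lower, with a median log2 change of 3.38, where 53.9% of all tested genes passed and 19.6% were higher. Csrnp1 and Dusp1 changed most, Csrnp1 from 11 to 17 read counts up to 884 to 1510 and Dusp1 from 14 to 39 up to 1443 to 2184. Ccn1 (log2 change 0.99, adjusted p = 0.322) and Klf10 (0.56, 0.271) changed least. At 0.5 h of IL-4, 5 were higher and 3 lower, with a median of 0.07, where 8.15% of all tested genes were higher and 8.14% lower. Myc, a growth regulator, rose from 6, 14 and 9 to 117, 145 and 160 read counts (3.79, adjusted p = 5.75e-07), and Csrnp1 rose by 1.94 (3.76e-05). Klf10 fell by 1.70 (adjusted p = 0.000738), and the anti-proliferative gene Btg2 fell from 22, 30 and 46 to 3, 1 and 6 read counts (-3.08, 6.41e-05).

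In the list of IL-4 and STAT6 genes, 13 of 14 were tested. The list was chosen with earlier results of these data known, so it is no independent check of the stimulus. At 2 h of IL-4, when 14.3% of all tested genes were higher, 12 of the 13 were higher and none lower, with a median log2 change of 3.27, or 2.73 with genes at 0 set to their bound. Pdcd1lg2, the gene of the checkpoint ligand PD-L2, went from 1, 0 and 2 to 324, 479 and 497 read counts, and Socs1, a feedback inhibitor of cytokine signalling, from 0, 2 and 1 to 202, 130 and 257. Il4ra, which encodes a chain of the IL-4 receptor, rose by 1.69 (adjusted p = 5.53e-06), and Stat6 was last (-0.25, 0.143). LPS had its largest median for this list at 1 h, 0.87, with 7 higher and 2 lower. The number of calls in either direction was near the 63.8% of all tested genes that passed then. Of all tested genes, 24.8% were higher and 39% lower, so the calls of the list lay more often on the higher side. Cish (5.79, adjusted p = 4.24e-09) and Tfec (2.69, 2.82e-11) were at the top, and Arg1 (-1.41, 0.0127) and the mannose receptor gene Mrc1 (-1.99, 3.72e-07) at the bottom.

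Genes upstream of immediate early transcription, 15 in the SRF, ternary complex, CREB and ERK list, changed in both directions. At 0.5 h of IL-4, 3 were higher and 2 lower, with a median of 0.05, where 8.15% of all tested genes were higher and 8.14% lower. Srf itself rose from 21, 23 and 23 to 42, 56 and 54 read counts (1.14 ± 0.22, adjusted p = 0.00275) and Mrtfb by 0.49 (0.00435). Rps6ka1, a kinase downstream of ERK, fell by 0.91 (adjusted p = 0.000512), and Mapk3 had -0.74 (0.217). At 1 h of LPS, 8 were higher and 1 lower with a median of 0.48, led by Creb1 (1.23, adjusted p = 4.05e-07) and Map2k1 (1.22, 4.67e-05), with Elk1 (-0.35, 0.208) and Rps6ka1 (-1.41, 4.63e-05) at the other end. The number of calls in either direction was near the 63.8% of all tested genes that passed at 1 h. Of all tested genes, 24.8% were higher and 39% lower, so the calls of this list too lay more often on the higher side. At 0.5 h of LPS the count was 4 higher and 4 lower, where 19.6% of all tested genes were higher and 34.4% lower. At 2 h it was 3 higher and 7 lower (median -0.38), where 26.9% of all tested genes were higher and 39% lower. At 4 h it was 3 higher and 5 lower (median -0.17), where 25.9% were higher and 37.6% lower. More genes were thus lower than higher at 2 and 4 h in the list and among all tested genes alike. Of 4 EGR partners, 2 were tested. Nab1, the paralogue of Nab2, had a log2 change of 1.45 at 1 h of LPS (adjusted p = 7.47e-09) and 0.26 at 1 h of IL-4 (0.00567), and Ddx20 had -0.82 (0.122) and 0.25 (0.688). Egr4 and Wt1 were under the filter.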

How the data were processed

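Chromatin-associated RNA from 27 samples of BMDMs was sequenced after a Smart-seq2 library procedure with random primers and tagmentation, which does not mark strand. According to the submitters' processing notes and the study's methods, the authors aligned reads to mm10 with TopHat2 2.1.1, removed those in several places or in listed problem regions (bedtools 2.29.2), counted the rest per gene in R over the GRCm38.p6 RefSeq annotation, and scaled the libraries on genes taken as invariant. The notes also name R 3.6.2. The deposited values, handled here as a score with no count model, are read counts that the authors normalised and rounded to integers. They give no depth, and errors come from the replicates alone.

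Each sample was placed in its group by its title. The test set was 13901 of 45070 genes, those reaching 10 in 3 or more samples. limma 3.58.1 (R 4.3.3) was run on log2(value + 1) with the trend option, p-values were adjusted by Benjamini and Hochberg's method across the 13901 genes, and adjusted p under 0.05 was the threshold. Fold changes on this scale understate the change of low genes. A course was a fit of 15 samples, the 3 untreated ones among them, and LPS was set against IL-4 in a fit of all 27 samples. Both courses share the untreated samples. The study tested each course with ImpulseDE2, which needs counts and was not used here. The fits were tested on simulated data. Figures were drawn with matplotlib 3.10.9 in Python 3.11.15.

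Same-numbered replicates deviated together: for replicate 1 the correlations of their deviations from group means were 0.425 to 0.851 over 36 pairs of groups, for replicate 2 0.163 to 0.529 and for replicate 3 0.279 to 0.681. All exceeded 0.1, so the numbers were taken to pair the samples. The main fits did not use this pairing, and p-values are from them unless another fit is named. A fit with replicate number as a block was an alternative. The others were median-of-ratios scaling, equal totals, a pseudocount of 8, no filter, a mean of at least 50, replicates 2 and 3 averaged, each replicate left out, other samples in the fit and, added after seeing the data, untreated replicate 3 left out alone. The members, the gene lists and the tests were chosen with earlier results of these data known.

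All members were named whatever their values. From each related list, the 2 largest and 2 smallest log2 changes were named at the time of the largest list median. Genes most like a member (3 for Egr2 and 1 for each other) came from non-members with a mean of at least 50 that do not overlap it. Overlapping genes were named with their values. Positions follow the deposited table (GRCm38, 1-based), and sequences and motifs are from RefSeq.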

Additional observations from a re-analysis of the deposited data

Results flagged for a closer look

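For each of the 10 members the responses to LPS and IL-4 differed, by a joint limma test of the 4 differences between the stimuli at matched times (the largest adjusted p was 3.59e-05, for Nr4a2). The largest log2 difference, LPS minus IL-4, was 5.01 for Egr1, 3.84 for Egr3, 5.85 for Nr4a1, 3.94 for Ier2, 3.60 for Ier5 and 1.36 for Nab2 at 0.5 h. It was 6.02 for Nr4a3 at 1 h and 1.78 for Nr4a2 at 4 h. For Egr2 and Ier3 it was -3.74 and -1.39, both at 4 h and both in favour of IL-4. Such a difference was found for 88.1% of all tested genes, so its presence does not set the members apart. Egr3, Nr4a3, Ier2 and Ier5 were tested only because their LPS samples passed the filter, which favours a difference towards LPS. No group had enough replicates for a search for single samples far from the others.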

How the results depend on the processing

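Of 128 member calls, 90 kept their side of the threshold and their direction in every alternative that tested them, and none was reversed. The replicate block lost 0 calls and gained 9: for the step from 2 to 4 h it gave 4 members for LPS and 1 for IL-4, and it changed no call other than those named above. Leaving out untreated replicate 3 lost 0 and gained 7, among them 1 for the IL-4 step from 2 to 4 h. Averaging replicates 2 and 3 lost 20, and 12, 25 and 27 were lost without replicate 1, 2 and 3.

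A mean of at least 50 kept only Nr4a1 of the members, so its counts are 1 or 0 by construction. At 4 h of LPS, 2 members passed with a pseudocount of 8 and 3 with no filter. For the step from 2 to 4 h of LPS, 1 passed with equal totals, a pseudocount of 8, no filter or averaged replicates. For that from 0.5 to 1 h of IL-4, 0 passed with no filter or averaged replicates, and for that from 0.5 to 4 h 2 with a pseudocount of 8 or averaged replicates and 1 with no filter. The causes were not tested.

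With 1 replicate left out, counts ranged from 9 to 10 (LPS course), 8 to 9, 7 to 9, 2 to 5 and 3 to 4 (LPS against untreated, in order of time), and 4 to 7, 5 to 7, 1 to 3 and 8 to 9 (LPS steps, 0.5 to 4 h last). For IL-4 they were 3 to 6 (course), 2 to 3, 2 to 6, 3 to 4 and 2 to 4 (times), and 0 to 2, 0, 0 and 2 (steps). Between stimuli they were 10 (any time), 8, 7 to 8, 4 to 6 and 5 to 8. Calls among all tested genes moved as well. For the IL-4 course 5606 genes passed in the main fit, and 6546, 2234 and 2169 without replicate 1, 2 and 3. For the IL-4 step from 0.5 to 1 h the numbers were 1087, 1930, 68 and 80 in the same order. For LPS at 0.5 h they were 7493, 8160, 5153 and 5349. Fewer calls without replicate 2 or 3 were thus not particular to the members.

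Values that changed sign passed in neither fit, though the change of Egr1 at 4 h was 1.31 without untreated replicate 3 and that of Nr4a1 at 2 h -1.30 without replicate 1: Egr1 at 4 h of LPS (-0.14 with equal totals, -0.00746 with a pseudocount of 8, -0.17 without replicate 2), Nr4a1 at 2 h (0.13 without replicate 3), Nab2 at 4 h (-0.0113 with equal totals) and Ier3 between stimuli at 1 h (-0.084 with equal totals). Over all tested genes, the median log2 change after LPS was -0.30 to -0.24, -0.91 to -0.73 with equal totals and -0.05 to 0.00 with median-of-ratios scaling. The share of calls that were higher was 36.3% to 40.8%, 18.3% to 23.7% and 48.8% to 49.6%. For LPS against IL-4 it was 33.4% to 38.4%, 19.1% to 22.6% and 47.6% to 48.8%, and for IL-4 50% to 53.1%, 31.5% to 53.4% and 45% to 49.7%. At levels under 10 read counts, rounding and depth limit what a change of a few counts can show.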
